A study of Mus musculus with 24 samples.

Results

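The genes described here are 32 genes of B cell identity and B cell receptor signalling, given as a list of names and looked up by symbol in the RNA-seq count tables. All 32 were found among the 55414 genes of the tables. The libraries came from spleens of BALB/c mice, with the cells given as splenocytes, in a study of CT-26, a colon carcinoma line of that strain. The stated model was an injection of this line on the right side at an age of 8 weeks. There were 4 RNA libraries titled control and 4 titled CT-26. The treatment field says the opposite of the titles: it gives injected CT-26 cells for the libraries titled control and healthy control for those titled CT-26. Both fields split the libraries in the same way, so the sets are called by their titles, every change is titled CT-26 against titled control, and no result can be read as tumour against healthy. No genotype other than the strain, no interval after injection and no sex is given, and no label says whether the 4 libraries of a set came from separate mice, so p-values measure the spread between libraries. The spleen holds B cells beside T cells, macrophages, granulocytes and red cell precursors.

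The B cell receptor is a membrane immunoglobulin held together with the signalling chains Cd79a and Cd79b. When antigen binds, the Src family kinases Lyn and Blk phosphorylate tyrosine motifs in these chains, Syk docks there, and Syk together with Btk activates the phospholipase Plcg2 on the adaptor Blnk. The resulting signals run through calcium, through protein kinase C beta to the Bcl10 and Malt1 complex and NF-kB, and through phosphoinositide 3-kinase. Cd22, Cd72 and Fcgr2b are inhibitory receptors that recruit the phosphatases Ptpn6 (SHP-1) or Inpp5d (SHIP1). Ebf1 and Pax5 establish and hold B cell identity, and Spib, Ikzf3 and the octamer coactivator Pou2af1 act with them in mature B cells. Of the 32 genes, 13 are found mostly in the B lineage among blood cells and 19 are also used by T, natural killer or myeloid cells.

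Promoters were searched because 3 of the regulators in the list have known recognition letters: the octamer bound with Pou2af1, the core site of Ebf1, and the site of ETS factors such as Spib. The windows run from 250 bases before to 50 bases after the annotated start and were taken by symbol from RefSeq on GRCm38.p6, whereas the count tables use a GRCm39 annotation. The table matched 26 of the 32 genes, with 30 promoters. Cd79b, Blk, Lyn, Ikzf3, Malt1 and Cd40 are not in it. Both strands were searched. The octamer ATTTGCAT was found in Blnk, 130 bases before the start, and as its reverse complement in Prkcb, 70 bases before it, against 1.74% of all 32851 promoters. The Ebf1 core CCCNNGGGA was found in Cd22 alone, in both orientations at overlapping positions 49 and 48 bases before the start, against 6.56% of all promoters. The ETS letters GAGGAAGT were found in Inpp5d, 20 bases before the start, and as the reverse complement in Cd37 and Cd72, 25 and 49 bases before it, against 3.20% of all promoters. These are matches of letters, and the data hold no measurement of binding. The windows of 5 of these genes are shown 5′ to 3′ along the gene, the motif letters in capitals, because Blnk, Prkcb, Cd22 and Cd37 were called lower below and Inpp5d was not. They lie at chr19:40994172-40994471 for Blnk (minus strand), chr7:122288875-122289174 for Prkcb (plus strand), chr7:30878979-30879278 for Cd22 (minus strand), chr7:45238790-45239089 for Cd37 (minus strand) and chr1:87620062-87620361 for Inpp5d (plus strand).
Blnk: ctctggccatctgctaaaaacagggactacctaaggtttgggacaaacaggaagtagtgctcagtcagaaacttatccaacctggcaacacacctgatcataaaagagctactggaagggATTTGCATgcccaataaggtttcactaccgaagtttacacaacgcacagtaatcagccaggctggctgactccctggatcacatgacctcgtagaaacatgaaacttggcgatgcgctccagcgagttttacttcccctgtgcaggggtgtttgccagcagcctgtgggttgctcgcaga
Prkcb: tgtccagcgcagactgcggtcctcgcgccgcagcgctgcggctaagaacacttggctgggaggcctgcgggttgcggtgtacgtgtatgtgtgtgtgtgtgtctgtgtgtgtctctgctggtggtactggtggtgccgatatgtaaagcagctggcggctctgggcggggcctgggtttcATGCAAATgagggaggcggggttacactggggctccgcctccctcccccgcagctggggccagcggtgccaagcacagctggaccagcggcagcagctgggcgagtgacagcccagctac
Cd22: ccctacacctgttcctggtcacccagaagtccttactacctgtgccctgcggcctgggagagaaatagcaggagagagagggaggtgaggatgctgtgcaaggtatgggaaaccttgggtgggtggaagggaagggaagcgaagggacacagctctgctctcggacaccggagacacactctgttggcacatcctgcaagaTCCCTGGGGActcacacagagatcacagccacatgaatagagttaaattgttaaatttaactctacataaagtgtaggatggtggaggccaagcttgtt
Cd37: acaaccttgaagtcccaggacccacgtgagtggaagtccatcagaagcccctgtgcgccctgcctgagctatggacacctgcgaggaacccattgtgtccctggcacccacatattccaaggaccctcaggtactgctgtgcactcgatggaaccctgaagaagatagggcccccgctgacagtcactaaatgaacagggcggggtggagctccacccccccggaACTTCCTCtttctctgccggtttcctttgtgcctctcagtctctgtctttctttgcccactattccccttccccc
Inpp5d: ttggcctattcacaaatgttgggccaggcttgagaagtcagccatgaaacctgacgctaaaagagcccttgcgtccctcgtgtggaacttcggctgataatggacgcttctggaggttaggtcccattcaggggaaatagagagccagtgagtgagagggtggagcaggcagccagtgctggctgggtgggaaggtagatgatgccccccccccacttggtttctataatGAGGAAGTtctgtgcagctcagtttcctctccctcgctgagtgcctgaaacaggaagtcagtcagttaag

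The RNA libraries held between 735298 and 1970950 counts. Mitochondrially encoded genes took 54.8% ± 9.15 (SD, n = 4) of the counts in the titled control set and 37.5% ± 3.91 (SD, n = 4) in the titled CT-26 set. Levels are given as CPM (counts of a gene relative to the total of its library), with the totals scaled by TMM, a method that assumes that most genes keep their level. Each fold change is edgeR's, and a gene is called when its p, adjusted by Benjamini-Hochberg over the 6408 genes tested, is under 0.05. Without the TMM scaling the log2 fold changes shift upward, by 0.37 at the median, and the calls that are then lost are given below.

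Most of the genes had lower levels in the set titled CT-26. Their summed level was between 2832 and 3469 CPM in the 4 titled control libraries and between 1079 and 1754 CPM in the 4 titled CT-26 libraries. Of the 30 genes that passed the filter on low counts, 21 were called lower and 0 higher, while 21.6% of all genes tested were called lower and 21.2% higher. No member was higher at an unadjusted p under 0.05 in edgeR, and DESeq2 also called 0 higher. The fall was at least 2-fold for 16 of them, against 15.3% of all genes tested. For 19 the titled CT-26 libraries all lay below the titled control libraries, against 18.9% of all genes tested. The median log2 fold change of the 30 was -1.04, and that of all genes tested was -0.02. Within the list, 10 of the 12 tested genes found mostly in the B lineage were called lower, with a median of -1.58, and 11 of the 18 that other cells also use, with a median of -0.89. In RNA of mixed spleen cells, fewer B cells and less of an RNA in each B cell cannot be told apart.

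**Figure D1:**
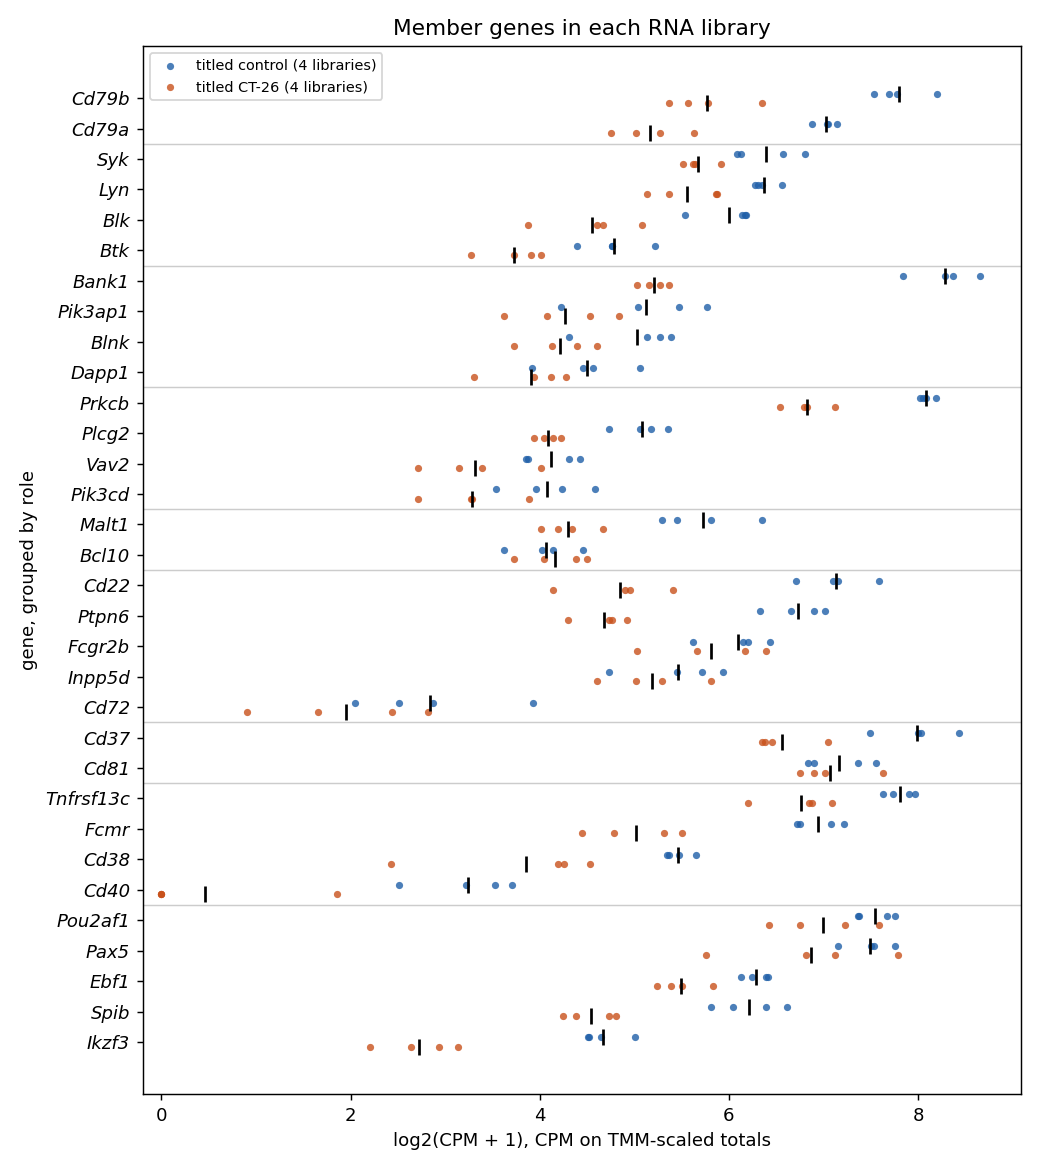
Level of each of the 32 genes in each of the 8 RNA libraries as log2(CPM + 1), with the libraries titled control in blue, those titled CT-26 in orange, a black tick at each set's mean and grey lines between the roles of the genes. For Bank1, Cd79a, Cd79b, Cd22 and Ptpn6 the sets lie far apart, whereas for Cd81, Bcl10, Fcgr2b and Inpp5d they overlap.

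**Figure D2:**
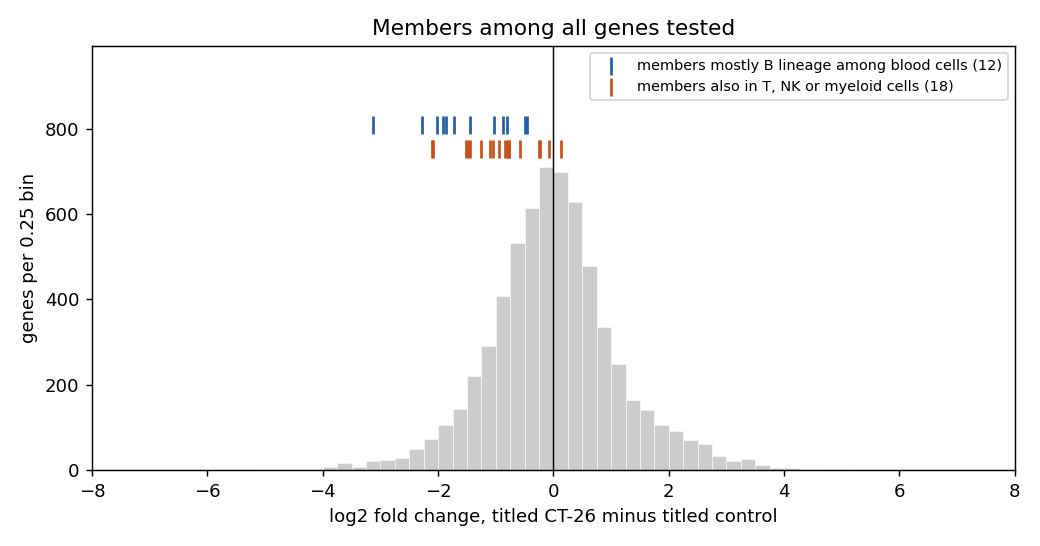
Histogram of the log2 fold changes of all genes tested (grey, bins of 0.25), with the 12 tested members found mostly in the B lineage (blue ticks) and the 18 also used by T, natural killer or myeloid cells (orange ticks) above it. Only Bcl10, an orange tick at 0.14, lies above 0, and the lowest tick, Bank1, is at -3.13.

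Cd79a and Cd79b, the chains that carry the receptor's signal, both fell. Cd79a (chr7:24596806-24601622, GRCm39) was at 130, 131, 141 and 116 CPM in the titled control libraries 1 to 4 and at 48.4, 25.9, 31.4 and 37.7 CPM in the titled CT-26 libraries. The sets did not overlap, and the log2 fold change was -1.86 (SE 0.23, adjusted p = 1.52e-07). Cd79b (chr11:106202167-106205588) was at 218, 205, 293 and 185 CPM against 80.3, 54.0, 40.2 and 46.6 CPM. The 2 chains fell by similar amounts, Cd79b changing by -2.02 (SE 0.24, adjusted p = 6.31e-08), and in both the first titled CT-26 library was the highest of its set.

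Of 6 constant region genes of the receptor's immunoglobulin part, 4 were called lower. Ighd, the heavy chain of IgD, was at 440, 501, 491 and 296 CPM in the titled control libraries and at 29.4, 22.3, 36.7 and 23.3 CPM in the titled CT-26 libraries, a change of -3.94 (adjusted p = 6.00e-12). Ighm, the heavy chain of IgM, was at 5620, 3617, 4524 and 6005 CPM against 6748, 3872, 4897 and 5399 CPM, and its change of 0.08 was not called (adjusted p = 0.817). The kappa constant gene Igkc changed by -0.48 (adjusted p = 0.157), while the lambda constant genes Iglc1, Iglc2 and Iglc3 were called lower, by -0.65, -1.79 and -1.74. Some lambda constant genes are near copies of each other, among them Iglc2 and Iglc3, so the separate levels of such genes are uncertain. Antibody-secreting cells also make these chains, and of 8 plasma cell markers 3 were tested. Jchain was called lower at -0.54, while Xbp1 (-0.08, edgeR adjusted p = 0.848) and Irf4 (-0.62, edgeR adjusted p = 0.11) were not called. The summed level of the 8 was between 674.5 and 917.0 CPM against between 448.3 and 642.7 CPM, with Mzb1 at 0 in every library. Most of this sum was Jchain, with means of 675 of 776 CPM in the titled control set and 464 of 542 CPM in the titled CT-26 set. The part of plasma cells in the immunoglobulin levels was not tested.

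The 4 kinases closest to the receptor were all called lower. Blk, a Src family kinase found mainly in B cells, was at 70.9, 69.4, 71.4 and 45.2 CPM in the titled control libraries and at 32.8, 13.7, 24.5 and 23.3 CPM in the titled CT-26 libraries. Its change was -1.44 (SE 0.27, adjusted p = 8.84e-05), and the sets did not overlap although the fourth titled control library stood well below the other 3. Lyn, the Src family kinase that B cells share with myeloid cells, was at 80.3, 76.5, 93.4 and 78.2 CPM against 57.0, 40.3, 34.1 and 57.7 CPM, a change of -0.80 (SE 0.23, adjusted p = 0.00535). Syk, which docks on the phosphorylated chains, was at 66.8, 68.7, 94.5 and 110 CPM against 59.6, 44.6, 48.0 and 48.8 CPM. Syk changed by -0.76 (SE 0.23, adjusted p = 0.00757), and its lowest titled control library was only just above the highest titled CT-26 library. Btk, the Tec family kinase whose loss stops B cell development in people, was at 26.1, 36.1, 26.2 and 19.98 CPM against 8.64, 15.1, 14.0 and 12.2 CPM, a change of -1.10 (SE 0.31, adjusted p = 0.00531). The calls of Lyn, Syk and Btk were lost without TMM (log2 fold changes -0.43, -0.41 and -0.75), and that of Lyn also with the lane as a factor, where its log2 fold change was -0.71 (adjusted p = 0.057).

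Among the adaptors, Bank1 had the lowest fold change. Bank1, a scaffold that binds Lyn and calcium channels of the endoplasmic reticulum in B cells, lies at chr3:135759124-136031827. Its levels were 310, 329, 401 and 228 CPM in the titled control libraries and 34.6, 31.7, 40.2 and 37.7 CPM in the titled CT-26 libraries. This was 8.78-fold lower on the fitted scale, a log2 fold change of -3.13 (SE 0.23, adjusted p = 2.60e-11). Only 56 of the 6408 genes tested, Bank1 included, had a change as low. Pik3ap1 (BCAP), which links the receptor complex to phosphoinositide 3-kinase, was at 17.7, 31.9, 53.5 and 43.5 CPM against 27.6, 15.8, 11.4 and 22.2 CPM, with overlapping sets (-0.94, SE 0.32, adjusted p = 0.0193). Blnk, the adaptor on which Btk meets Plcg2, also overlapped, at 18.8, 34.01, 40.9 and 37.6 CPM against 23.3, 16.6, 12.2 and 19.97 CPM (-0.88, SE 0.30, adjusted p = 0.0173). In both genes the first titled control library was the low one. The calls of Pik3ap1 and Blnk were each lost in 6 of 16 alternatives, among them the fits without the third titled control, the second titled CT-26 or the third titled CT-26 library, where their log2 fold changes stayed negative. Dapp1, an adaptor that binds phosphoinositides at the membrane, was not called (-0.59, SE 0.33, adjusted p = 0.155), at between 14.1 and 32.3 CPM against between 8.87 and 18.3 CPM.

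Of the signalling enzymes, Prkcb and Plcg2 were called lower in the main test and Pik3cd and Vav2 were not. Prkcb, the protein kinase C that passes the signal to NF-kB, was at 259, 291, 270 and 264 CPM in the titled control libraries and at 138, 92.1, 113 and 110 CPM in the titled CT-26 libraries, a change of -1.26 (SE 0.20, adjusted p = 9.42e-06). It had the smallest SE of the 30 tested genes. Plcg2, the phospholipase that starts the calcium signal, was at 32.3, 25.5, 39.9 and 35.3 CPM against 15.5, 14.4, 16.6 and 17.7 CPM. Its change was -1.05 (SE 0.28, adjusted p = 0.003), with no overlap, and was not called without TMM (-0.68). Pik3cd, the catalytic p110 delta subunit of leukocytes, was at between 10.6 and 22.9 CPM against between 5.55 and 13.8 CPM (-0.83, SE 0.37, adjusted p = 0.0705). Vav2, an exchange factor for Rac, was at between 13.5 and 20.6 CPM against between 5.55 and 15.1 CPM (-0.77, SE 0.36, adjusted p = 0.0892). Pik3cd was called lower with upper quartile scaling (-0.91, adjusted p = 0.0469), without the second titled control library (-1.02, adjusted p = 0.0367) and without the first titled CT-26 library (-1.07, adjusted p = 0.0351), and Vav2 without the second titled CT-26 library (-1.07, adjusted p = 0.0377).

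Of the partners in the NF-kB step, Malt1 was called lower and Bcl10 was not. Malt1, the protease of the complex, was at 42.8, 55.3, 80.8 and 38.2 CPM in the titled control libraries and at 17.3, 15.1, 19.2 and 24.4 CPM in the titled CT-26 libraries, a change of -1.51 (SE 0.28, adjusted p = 8.07e-05). Bcl10, the adaptor that binds Malt1, was at 16.7, 11.3, 21.0 and 15.3 CPM against 19.9, 21.6, 12.2 and 15.5 CPM. Bcl10 was the 1 tested member with a positive value, 0.14 (SE 0.33, 95% interval -0.53 to 0.81), and was not called. The difference between the changes of Malt1 and Bcl10 was not itself tested.

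In the inhibitory arm Cd22 and Ptpn6 were called lower, and Fcgr2b and Inpp5d were not. Cd22, a lectin of B cells that binds sialic acid and damps receptor signalling, was at 103, 141, 191 and 136 CPM in the titled control libraries and at 41.5, 28.8, 16.6 and 30.0 CPM in the titled CT-26 libraries (-2.29, SE 0.26, adjusted p = 3.68e-08). Ptpn6, the tyrosine phosphatase that Cd22 recruits and that is made in most blood cells, was at 100, 128, 119 and 79.3 CPM against 29.4, 18.7, 26.2 and 25.5 CPM (-2.09, SE 0.24, adjusted p = 5.27e-08). Neither gene had overlapping sets. Fcgr2b, the inhibitory IgG receptor of B and myeloid cells, was at 69.9, 85.7, 72.4 and 48.2 CPM against 82.9, 31.7, 49.8 and 71.0 CPM (-0.24, SE 0.26, adjusted p = 0.492). Inpp5d, the lipid phosphatase that Fcgr2b recruits, was at 60.5, 25.5, 51.4 and 42.9 CPM against 55.3, 38.1, 31.4 and 23.3 CPM (-0.25, SE 0.29, adjusted p = 0.498). In both, the libraries of the sets were interleaved, and their 95% intervals reached down to -0.77 for Fcgr2b and -0.84 for Inpp5d, so a moderate fall is within their error. Cd72, a further inhibitory receptor of B cells, had 3, 20, 6 and 8 counts against 7, 3, 1 and 4 counts and did not pass the filter. Tested without the filter it was not called (adjusted p = 0.245). The gene Tesk1 overlaps 41.6% of its exonic length on the opposite strand. Without strand in the counting, read pairs in the overlap cannot be told apart by gene, so the counts of Cd72 may be too low or too high.

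Of the tetraspanins, Cd37 was called lower and Cd81 was not, and the difference between their changes was not itself tested. Cd37, a tetraspanin of mature B cells and other leukocytes, was at 255, 344, 260 and 179 CPM in the titled control libraries and at 131, 80.6, 86.5 and 82.1 CPM in the titled CT-26 libraries (-1.45, SE 0.23, adjusted p = 7.95e-06). Cd81, a tetraspanin made in many cell types, was at 188, 118, 113 and 164 CPM against 118, 128, 197 and 106 CPM. Its change was -0.08 (SE 0.23, 95% interval -0.55 to 0.38, adjusted p = 0.801), and the third titled CT-26 library was its highest of all 8.

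All 3 tested genes of the role survival, help and other receptors were called lower. Tnfrsf13c (BAFF receptor), on which the survival of mature B cells depends, was at 197, 250, 239 and 212 CPM in the titled control libraries and at 136, 72.7, 117 and 114 CPM in the titled CT-26 libraries (-1.03, SE 0.21, adjusted p = 0.000258). Fcmr, the receptor for the Fc part of IgM, was at 104.3, 134, 107 and 147 CPM against 38.9, 20.9, 44.5 and 26.6 CPM (-1.92, SE 0.25, adjusted p = 2.90e-07). Cd38, a surface enzyme that consumes NAD, was at 39.6, 40.4, 49.3 and 43.5 CPM against 18.1, 17.3, 4.37 and 22.2 CPM (-1.49, SE 0.32, adjusted p = 0.00035), with the third titled CT-26 library the lowest by far. Cd40, the receptor for help from T cells, had 8, 17, 10 and 8 counts in the set titled control, against 0, 0, 3 and 0 counts in the set titled CT-26. This is 43 counts against 3. Set against the TMM-scaled totals of the libraries the ratio was 13.1, with a 95% interval of 4.19 to 66.0 that covers counting error only. Cd40 did not pass the filter, and without it the change was called (adjusted p = 0.000115).

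Of the 5 regulators of B cell identity, 3 were called lower. Ikzf3 (Aiolos), an Ikaros family factor of mature lymphocytes, was at 21.9, 31.2, 24.1 and 21.7 CPM in the titled control libraries and at 7.77, 3.60, 5.24 and 6.66 CPM in the titled CT-26 libraries (-2.10, SE 0.36, adjusted p = 2.62e-05). Spib, an ETS factor of mature B cells and plasmacytoid dendritic cells, was at 97.0, 65.2, 82.9 and 55.2 CPM against 19.9, 18.0, 27.1 and 25.5 CPM (-1.73, SE 0.26, adjusted p = 3.26e-06). Ebf1, which opens the B cell programme, was at 68.9, 82.9, 84.0 and 74.6 CPM against 56.2, 41.0, 36.7 and 44.4 CPM (-0.80, SE 0.22, adjusted p = 0.00434). The sets of these 3 genes did not overlap, but the call of Ebf1 was lost without TMM (-0.44, adjusted p = 0.211) and with the lane as a factor (-0.66, adjusted p = 0.0767).

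Pax5 and Pou2af1 were not called in the main test. Pax5, the factor that holds B cells to their lineage, was at 185, 181, 215 and 141 CPM in the titled control libraries and at 219, 53.3, 112 and 139 CPM in the titled CT-26 libraries, a change of -0.46 (SE 0.30, adjusted p = 0.224). Its first titled CT-26 library was the highest of all 8, while the other 3 lay below every titled control library. Without that library Pax5 was called lower, at -0.82 (adjusted p = 0.0122). Pou2af1 too was highest of its set in the first titled CT-26 library, at 164, 215, 165 and 203 CPM against 191, 84.9, 107 and 149 CPM (-0.50, SE 0.23, adjusted p = 0.0807), and was called at -0.71 (adjusted p = 0.0119) without that library. Upper quartile scaling of all 8 libraries also called Pou2af1, at -0.57 (adjusted p = 0.0456). The first titled CT-26 library also had the highest summed level of the members in its set, 1754 CPM against between 1079 and 1363 CPM in the other 3.

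**Figure D3:**
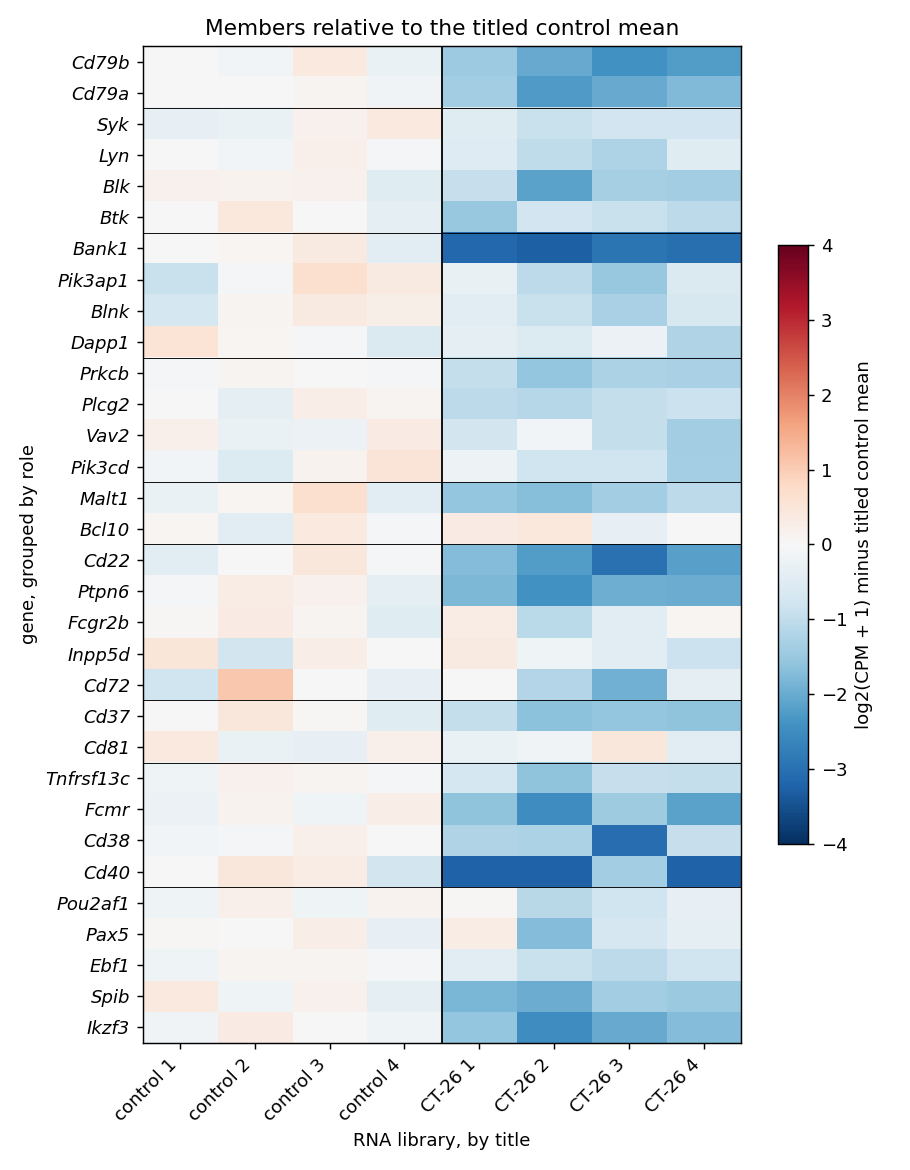
Each member in each library as log2(CPM + 1) minus the mean of the titled control libraries, with blue for lower and red for higher, genes in rows grouped by role and libraries in columns. The titled CT-26 columns are blue for nearly all genes, with Bank1 among the darkest rows, and the first titled CT-26 column is the palest for Pax5, Pou2af1, Cd79a and Cd79b.

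A second test asked whether a gene fell by more or less than the receptor chains themselves, by scaling each library to its summed counts of Cd79a and Cd79b, between 76 and 512 counts. On this scale a value of 0 means a change in step with the pair, and the median of all genes tested was 1.96, because the pair itself fell. Of the 28 other members, 18 were higher relative to the pair, 1 was lower and 9 were not called, with a median of 0.97. Of all genes tested, 87.0% were higher and 1.23% lower on this scale. The share of the members that were higher was thus below that of all genes. Bank1 was the 1 tested member called lower relative to the pair, by 1.10 on the log2 scale (SE 0.34, adjusted p = 0.00145). It was lower in each of 13 alternatives as well, among them a fit to another reference than the pair. Cd40 and Cd72 did not pass the filter and were not in the main relative test. Of the 10 tested further B cell markers described below, 5 were lower relative to the pair and 1 higher, with a median of -0.81.

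Genes near 0 on the relative scale were Fcmr at 0.05, Ptpn6 at -0.11, Ikzf3 at -0.17, Spib at 0.30 and Cd22 at -0.34, none of them called. Their 95% intervals, for example -1.01 to 0.33 for Cd22 and -0.62 to 0.72 for Fcmr, leave room for differences from the pair in either direction. Cd81, Pax5, Pou2af1, Fcgr2b, Inpp5d and Bcl10 were higher relative to the pair in the main test. They were also higher in each of the 13 alternatives, among them a fit to another reference than the pair. That reference contained the counts of Pax5 itself. The values were 1.94 for Cd81 (adjusted p = 2.06e-08), 2.10 for Bcl10 (1.06e-06), 1.71 for Fcgr2b (1.31e-06), 1.68 for Inpp5d (5.13e-06), 1.45 for Pax5 (1.68e-05) and 1.42 for Pou2af1 (2.58e-05), each an edgeR adjusted p. The inhibitory genes Fcgr2b and Inpp5d were thus higher relative to the receptor chains, as were 87.0% of all genes tested. Both lay below the median of all genes tested, 1.96. No difference from the pair was detected for Cd22 and Ptpn6 in the main relative test. The proximal genes Syk (1.20), Lyn (1.17), Blnk (1.07), Btk (0.91) and Plcg2 (0.94) were called higher too. A reference of 5 B cell genes (Cd79a, Cd79b, Cd22, Blnk and Pax5) was also used in place of the pair. With it only Cd81, Pax5, Pou2af1, Fcgr2b, Inpp5d and Bcl10 were higher, and Cd22 joined Bank1 as lower, at -0.83 (adjusted p = 0.0466). Cd22, Blnk and Pax5 were there scaled to a sum that contains them, so their values cannot show a difference from other genes alone. Values were lower on it than against the pair, Cd79a and Cd79b themselves at -0.43 and -0.56 (neither called). Calls lost or gained with it may therefore come from the choice of reference. With counts simulated with the pair unchanged, unlike in these sets, this relative test made 12 false calls among 143, more than the threshold allows for.

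**Figure D4:**
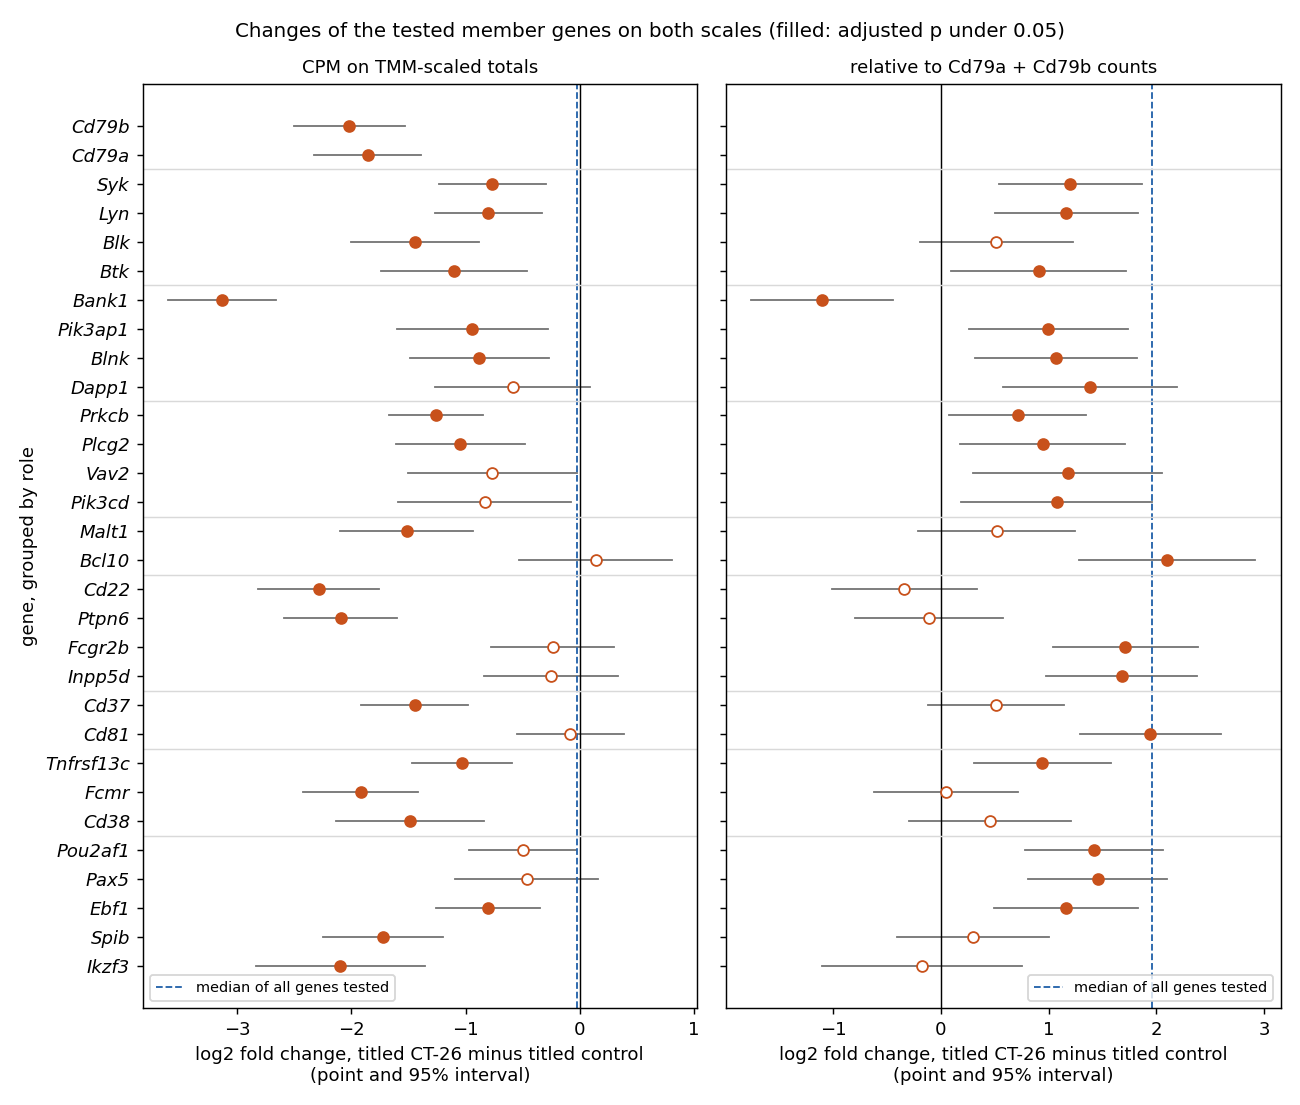
Log2 fold change of each tested member with its 95% interval, on TMM-scaled totals (left) and relative to the summed counts of Cd79a and Cd79b (right), with filled points for an adjusted p under 0.05 and a dashed line at the median of all genes tested. On the left 21 points are filled, all below 0, and on the right Bank1 is the 1 filled point below 0.

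Per kilobase of exon the order of the members changed between the sets. In the titled control set Cd79b was first at 157 CPM per kilobase, followed by Tnfrsf13c at 110, Cd79a at 89.0, Cd37 at 73.7 and Pou2af1 at 73.2. In the titled CT-26 set Tnfrsf13c was first at 53.7 ± 13.0 (SD, n = 4), followed by Pou2af1 at 52.1 ± 18.4, Cd81 at 47.8 ± 14.2 and Cd79b at 38.6 ± 12.3, neighbours that do not differ beyond their spread. Bank1 went from rank 8 of 32 to rank 18. Cd72 was last in the titled control set and Cd40 in the titled CT-26 set.

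Other genes of the pathway were called in both directions. Of 59 listed partners, 46 were tested, 18 were called lower and 5 higher, with a median log2 fold change of -0.33. Of all genes tested, 21.6% were called lower and 21.2% higher, with a median of -0.02. Among the lowest p-values were those of the complement receptor Cr2 (-4.04, adjusted p = 6.26e-12), the Ras exchange factor Rasgrp3 (-1.93, adjusted p = 2.63e-07) and the phosphatase Ptprc (CD45, -1.61, adjusted p = 1.83e-06). Rasgrp3 was at 212, 208, 193 and 159 CPM in the titled control libraries and at 71.7, 28.8, 41.1 and 62.1 CPM in the titled CT-26 libraries. Higher were the immediate early gene Fos (1.87, adjusted p = 4.50e-05), the Ras exchange factor Sos2 (1.44), the kinases Akt2 (1.21) and Mapk3 (0.69), and Pik3cb (0.98), a catalytic subunit of phosphoinositide 3-kinase outside the leukocyte form. Most of these partners are made in many cell types. Without TMM 7 partners were called lower and 9 higher, while of all 6408 genes tested 730 were called lower and 1955 higher. The calls of this list and those of all genes thus both change with the scaling.

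Markers of other spleen cells moved in both directions. Of 10 tested further B cell markers, 9 were called lower, with a median of -2.72, and their summed level was between 1528 and 2773 CPM in the titled control libraries against between 292 and 509 CPM. All 13 tested T cell markers and all 4 tested natural killer cell markers were called lower, the T cell sum going from between 1669 and 2408 CPM to between 353 and 828 CPM. Of the red pulp macrophage and monocyte markers, 8 of 11 were lower, and 3 of 3 tested dendritic cell markers. Neutrophil markers were called higher for 9 of 10 (sums between 509 and 1635 CPM against between 3782 and 9101 CPM), dividing cell markers for 8 of 8 (between 553 and 825 CPM against between 3193 and 4820 CPM) and erythroid markers for 9 of 12. Of 4 tested follicular and stromal cell markers, 1 was called lower and 0 higher. In no set was a gene of these lists at 0 in every library. These shifts run alongside the levels of members that other cells also make, among them Lyn, Syk, Btk, Fcgr2b, Inpp5d, Cd81 and Ptpn6, and their part in those values was not tested.

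A lane number could be read from the name of each library's table and from no other label, and lanes 3 and 4 held 1 library each. In lane 1, with 1 titled control and 2 titled CT-26 libraries, 29 of the 30 tested members were lower in the titled CT-26 set, with a median difference of -1.30 in log2(CPM + 1) against -0.01 over all genes tested. In lane 2, with 2 and 1, 25 of 30 were lower, with a median of -0.73 against -0.00886 over all genes tested. Bank1 differed by -3.50 and -2.91. All 21 called members were lower in lanes 1 and 2, in libraries that also entered the test. With the lane as a factor 17 members were called.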

How the data were processed

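Per the file headers, the authors made raw counts of read pairs per gene with featureCounts 2.0.1 on GENCODE M29 models (GRCm39), without strand, and these counts were deposited for each RNA library. Per the submitters' processing notes, Trimmomatic 0.39 and STAR 2.7.10a were used, and both GRCm39 and GRCm38 are listed. Symbols came from a reference table, for 52081 of 55414 genes. The T and B cell receptor tables were not used here.

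After filterByExpr and TMM scaling, the sets were compared by the robust quasi-likelihood test of edgeR (4.0.16, in R 4.3.3), with Benjamini-Hochberg adjustment over all genes tested and a threshold of 0.05. The relative test kept the same genes and replaced the totals by the summed counts of Cd79a and Cd79b, which were not read. DESeq2 1.42.0, other scalings, no filter, the lane (from the table names), the replicate number and each library left out were tried as alternatives. CPM use TMM-scaled totals, values after ± are SDs, and a floor of 3 counts corresponds to between 1.76 and 3.33 CPM. Within lanes a pseudocount of 1 was used. On simulated data the main procedure made 6 false calls among 139 and found 47.8% of 2-fold and 100% of 4-fold changes, over genes of all levels. The simulation changed few genes, equally in both directions, and gave all libraries the same composition otherwise. In the real sets 21.6% of genes were called lower and 21.2% higher, so these rates may not hold for them.

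The members, their roles and all gene lists were chosen with earlier results of these data known. Every member is named. Of the partners and immunoglobulin genes, the called genes of smallest p are named, up to 4 in each direction. The marker lists had the same rule but are given by counts, apart from plasma cell markers. Ighm, Igkc, Mzb1, Xbp1, Irf4 and Pik3cb were named after their values were seen. A gene that meets the rule is not reported here. Within each set the libraries differed by more than sampling noise (lowest chi-square per degree of freedom 4.28).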

Additional observations from a re-analysis of the deposited data

Results flagged for a closer look

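In 3 of 66 sets of 4 libraries, 1 library stood apart from the other 3 by Dixon's criterion, and chance marks about 1 set in 20. Blk was at 45.2 CPM in titled control library 4, against between 69.4 and 71.4 CPM in the other 3. Cd37 was at 131 CPM in titled CT-26 library 1, against between 80.6 and 86.5 CPM in the others. Cd40 was at 2.62 CPM, 3 counts, in titled CT-26 library 3 and at 0 in the others of its set. Both Blk and Cd37 kept their calls without these libraries.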

How the results depend on the processing

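Of the 21 members called lower, 14 were called in all 16 alternatives: Cd79a, Cd79b, Cd22, Blk, Bank1, Cd37, Fcmr, Spib, Ikzf3, Ptpn6, Prkcb, Malt1, Tnfrsf13c and Cd38. Btk, Syk, Plcg2, Lyn, Ebf1, Blnk and Pik3ap1 lost the call in at least 1. Pik3cd (3 alternatives), Pou2af1 (2), Pax5 (1) and Vav2 (1) gained one. With 1 library left out, between 19 and 24 members were called lower, and with the lane as a factor 17. Without TMM 14 members were called lower, the median was -0.69, 7 partners were lower and 9 higher, and Cd81, Fcgr2b and Inpp5d turned to 0.31, 0.12 and 0.14. In this setting 730 of all 6408 genes tested were called lower and 1955 higher. By its construction it moves the log2 fold changes upward, with a median shift of 0.37. The shift was not the same for each gene: Malt1 went from -1.51 to -1.19 and Cd81 from -0.08 to 0.31. SEs changed too, that of Syk from 0.23 to 0.28 and that of Pax5 from 0.30 to 0.29. With the lane as a factor 10 partners were lower and 3 higher, Fcgr2b was at 0.0074, 11 members were higher relative to the Cd79 pair, and Fcmr and Spib were at -0.089 and -0.0465 relative to it. With 1 library left out, between 3 and 6 partners were called higher, and the counts of 3 came without titled control library 2 or 3. Cd81 then ranged from -0.29 to 0.0696, Fcgr2b from -0.44 to 0.00465 and Bcl10 from -0.0135 to 0.30. Relative to the pair, Fcmr ranged from -0.30 to 0.24 and Ptpn6 from -0.26 to 0.0267. With the reference of 5 B cell genes 6 members were higher and 2 lower, and Blk, Fcmr, Spib and Cd38 turned to -0.0285, -0.47, -0.22 and -0.0351. Of the members called there, Pax5 and Cd22 are part of the reference. None of the values that changed sign was called in either direction with all libraries on the scale concerned. The cause of the other changes was not tested.

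No pairing of the libraries by replicate number was detected: correlations of same-numbered libraries were between -0.0868 and 0.0774, and 1 of 4 matched its own number best. With 4 libraries in each set a weak pairing could have been missed. With the replicate block 21 members were lower and 0 higher, 18 partners were lower and 4 higher, and 16 members were higher and 1 lower relative to the pair, where Btk and Prkcb lost their calls. Depth limits Cd40 and Cd72, which stayed below the filter.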

Other observations

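Genes of early B cell development, chosen after their values were seen, were close to absent from the counts of all 8 libraries. Rag1 and Rag2, the recombinase genes of B cell precursors, had 0 counts in every library. Dntt, Igll1 and Vpreb1, which act at the same stages, had at most 3 counts in any library. No difference between the sets is detectable for them at this depth.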
